A study of Mus musculus with 12 samples.

Results

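The mRNA of unstimulated EL-4 cells treated with cycloheximide (CHX) was compared with that of unstimulated EL-4 cells given only the solvent DMSO. EL-4 is a mouse T lymphoma cell line. The comparison rests on 6 of the 12 arrays of the series, 3 CHX and 3 DMSO arrays chosen by their labels alone. Both groups were held for 30 min in 10 μg/ml CHX in DMSO or in DMSO, and both had 0 h with phorbol myristate acetate (PMA) and ionomycin. The other 6 arrays hold the same pair of pretreatments followed by 4 h with 10 ng/ml PMA plus 1 μM ionomycin, together called P/I. Whether CHX was present for longer than this pretreatment in the cells without P/I is not given in the sources used here. Stimulation and time in CHX therefore cannot be told apart when the pair of CHX effects is set side by side. RNA was hybridised to Affymetrix Mouse Gene 1.0ST arrays, and a value is a log2 robust multichip average (RMA) of a probe set. Of 35399 probe sets, the 21789 that pair with exactly 1 gene symbol were tested, and they stand for 19938 genes.

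CHX stops the elongation step of translation, so that proteins with a short life are lost while their mRNAs can still be made. It is known for raising the mRNAs of many immediate early genes, the genes that answer a stimulus without new protein, through loss of labile repressors and through slower decay of mRNA. In T cell studies it serves to divide the genes induced by a stimulus into a primary response, which needs no new protein, and a secondary response, which does. The study divided its induced genes by P/I against no stimulus and by P/I with CHX against P/I without it. The CHX effect without a stimulus does not enter that stated rule.

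The arrays read as T cells in both groups. Of 13 measured T cell identity genes 12 lay at or above log2 7 in DMSO, and the mean of the list was 9.16 to 9.42 on the DMSO arrays and 9.22 to 9.41 on the CHX arrays. Of 9 B cell markers 8 lay under log2 7, as did all 12 myeloid markers and all 10 erythroid and fibroblast markers. The list means were 5.02 to 5.11 with DMSO and 4.99 to 5.03 with CHX for B cells, 5.16 to 5.2 and 5.06 to 5.13 for myeloid cells, and 5.44 to 5.49 and 5.36 to 5.41 for erythroid cells and fibroblasts. Medians of the 6 arrays were 5.82 to 5.92. Arrays with the same replicate number shared their deviations from the group means, with correlations across probe sets of 0.515 to 0.752 in the 3 pairs. Results therefore come from an unpaired fit of 12 arrays, the same fit with a block for the replicate number, and a paired fit of the 6 unstimulated arrays. Many genes and most lists are given by the paired fit alone, which made the most calls of the 3 fits. In these bulk samples, fewer cells with a transcript and less of it per cell cannot be told apart, and a difference is relative to the other genes of an array.

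CHX without a stimulus raised the mRNA of 7 genes in the unpaired fit and lowered none, at a Benjamini-Hochberg adjusted p under 0.1 from limma. That is 0.0321% of the 21789 probe sets higher and 0% lower, and 896 and 572 lay under an unadjusted p of 0.05. With the replicate block 94 probe sets were higher and 2 lower (0.431% and 0.00918%). In the paired fit of 6 arrays 1661 were higher and 491 lower (7.62% and 2.25%), while an unpaired fit of the same 6 arrays called 0 in either direction (1282 and 787 at an unadjusted p under 0.05). The 7 genes of the unpaired fit were called in the other fits with 12 blocked and with 6 paired arrays, and all 96 calls with the block were also called in the paired fit. The changes were small: the paired calls had a median log2 difference of 0.34 for the higher and -0.27 for the lower probe sets, and 126 and 5 of them differed by more than 1.5-fold. Replicate 1 showed the smallest change, with a median pair difference over the higher calls of 0.237, against 0.379 in replicate 2 and 0.421 in replicate 3. Leaving out replicate 1 gave 656 higher and 86 lower probe sets in the unpaired fit, whereas leaving out replicate 2 or replicate 3 gave 0 in either direction. In the paired fit, 2240, 151 and 295 were higher without replicates 1, 2 and 3, and 1058, 13 and 24 were lower.

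The 7 genes of the unpaired fit were led by Arrdc3, an alpha-arrestin adaptor that brings membrane receptors to ubiquitin ligases. Arrdc3 read log2 8.66, 7.71 and 7.7 on the DMSO arrays of replicates 1, 2 and 3 and 9.58, 9.66 and 9.89 on the CHX arrays. All CHX values were above all DMSO values, with the highest DMSO value in replicate 1. The log2 difference was 1.69 (SE 0.22, 3.22-fold, limma adjusted p = 0.0421). Clk1, a kinase that phosphorylates SR splicing factors, read 9.41, 9.29 and 9.25 with DMSO and 10.01, 10.46 and 10.56 with CHX. Its groups did not overlap, and the difference was 1.03 (SE 0.13, 2.04-fold, limma adjusted p = 0.0421).

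The other 5 genes rose by 1.63- to 1.97-fold. Zfp87, a zinc finger protein, read 7.68, 7.7 and 7.76 with DMSO and 8.42, 8.71 and 8.95 with CHX, a log2 difference of 0.98 (limma adjusted p = 0.0422). Zfp263, another zinc finger protein, read 7.01, 7.02 and 7.01 with DMSO and 7.63, 7.73 and 8.05 with CHX, a difference of 0.79 (limma adjusted p = 0.0663). In both genes the DMSO arrays lay close together and every CHX array was far above them. Fkbp7, a prolyl isomerase of the endoplasmic reticulum, read 5.71, 5.62 and 5.5 with DMSO and 6.47, 6.35 and 6.41 with CHX, a difference of 0.80 (limma adjusted p = 0.0418). Rasl11b, a small Ras-like GTPase, read 6.73, 6.54 and 6.6 with DMSO and 7.4, 7.28 and 7.33 with CHX, a difference of 0.71 (limma adjusted p = 0.0418). Zfp217, a zinc finger factor found in repressor complexes, read 8.31, 8.1 and 8.16 with DMSO and 8.72, 8.98 and 8.98 with CHX, also a difference of 0.71 (limma adjusted p = 0.0902). None of these 5 genes had a CHX value within its DMSO range, against 7.18% of all probe sets with all CHX above all DMSO values.

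**Figure D1:**
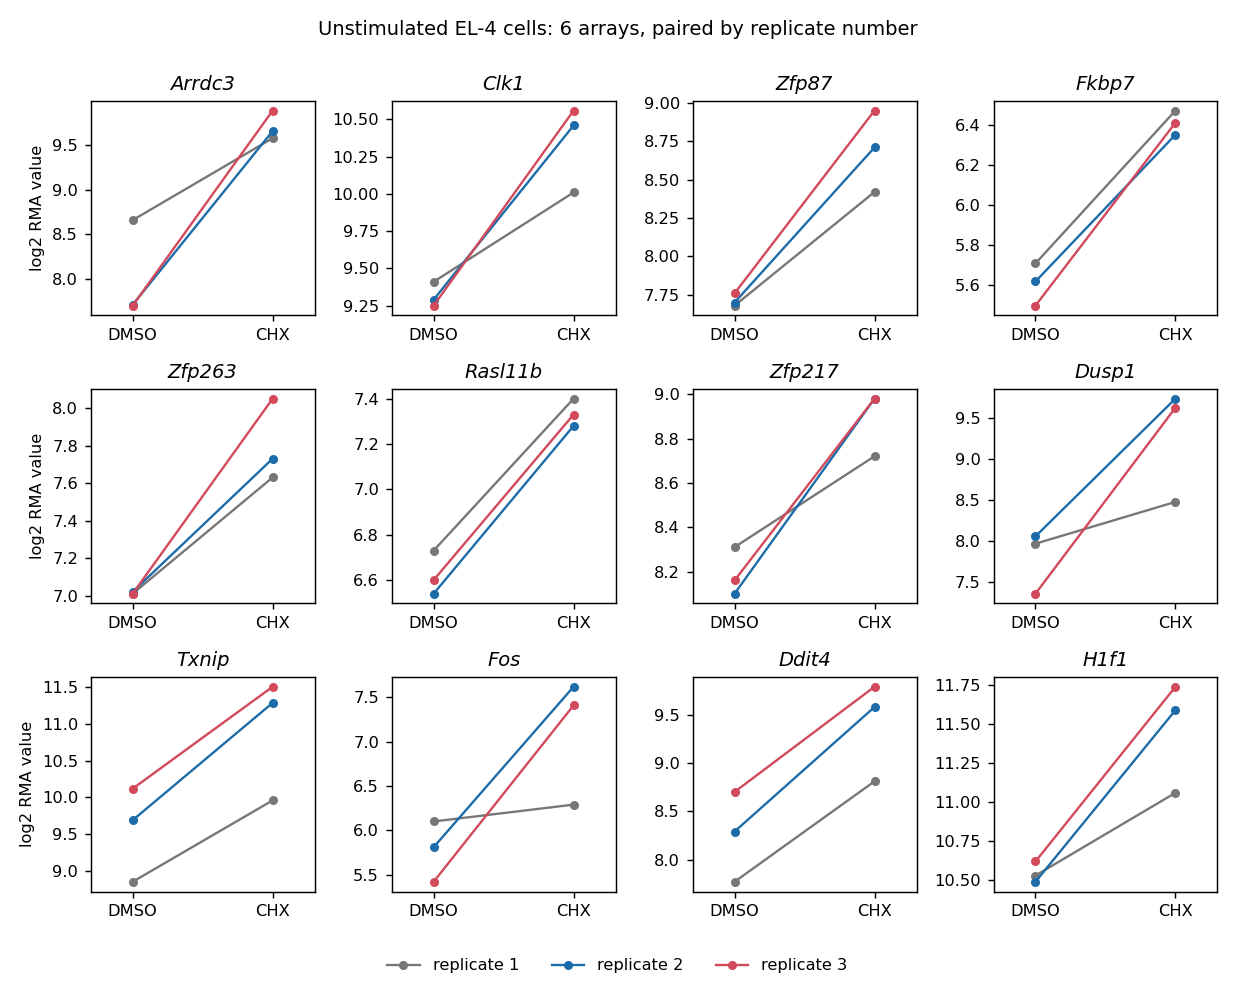
Log2 RMA values of 12 genes in unstimulated EL-4 cells, with 1 line per replicate number from its DMSO to its CHX array; each panel has its own vertical axis, which does not start at 0. All 36 lines climb, and in Dusp1 and Fos the line of replicate 1 climbs least, by 0.51 and 0.19.

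Among the genes that the replicate block brought in were some whose level differed among replicates but moved the same way in each. Txnip, an alpha-arrestin that restrains glucose uptake and binds thioredoxin, read 8.85, 9.69 and 10.12 with DMSO and 9.96, 11.29 and 11.51 with CHX. The groups overlapped while each pair rose, by 1.11, 1.59 and 1.39. Its log2 difference of 1.37 had a limma adjusted p = 0.587 unpaired, 0.0194 with the block and 0.0014 paired. Ddit4, a stress-induced inhibitor of mTORC1, read 7.77, 8.29 and 8.7 with DMSO and 8.81, 9.58 and 9.79 with CHX, a difference of 1.14 (limma adjusted p = 0.425 unpaired, 0.0743 with the block and 0.0014 paired). The CHX value of its replicate 1 was just above the highest DMSO value, that of replicate 3. Of the 5 measured alpha-arrestins only Arrdc3 and Txnip passed the paired fit. Arrdc1, Arrdc2 and Arrdc4 had log2 differences of 0.0491, 0.135 and -0.134.

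Among the 94 probe sets higher with the block, the increases ranged from 0.37 to 1.69 on the log2 scale and 6 exceeded 2-fold. No overlap between groups was seen in 80 of the 94, against 7.18% of all probe sets above and 9.12% below. A mean of log2 6 or more over the 12 arrays was seen in 92 of them, which is 0.873% of the probe sets at that level. Ccnt2, a cyclin of the elongation kinase P-TEFb, rose by log2 0.94 (limma adjusted p = 0.0561 with the block), from 8.54, 8.51 and 8.56 to 9.22, 9.47 and 9.73. Ice2, a subunit of the little elongation complex, rose by 0.84 (0.0194 with the block) and Med18, a Mediator subunit, by 0.76 (0.0372). Palb2, the BRCA2 partner in DNA repair, rose by 0.79 (0.0371) and Exog, a mitochondrial nuclease, by 0.91 (0.0338). Ice2 and Palb2 overlapped between groups, since the DMSO array of replicate 1 read 7.02 and 6.76 against at most 6.13 and 5.86 in the others, and each of their pairs rose. Other increases were those of Zfp157 (0.85), Gcfc2 (0.82), Pvr (0.82), the ligand of several lymphocyte receptors, and Adm (0.82), the precursor of the vasodilator adrenomedullin, with limma adjusted p-values of 0.0538, 0.0424, 0.0775 and 0.0624 with the block. Snhg16, a host of small nucleolar RNAs, rose by 0.73 (0.029) and Eif4a2, a helicase of translation initiation, by 0.63 (0.0445). Rgs2, a regulator of G-protein signalling, rose by 0.56 (0.0762) and Rrm2, a subunit of ribonucleotide reductase, by 0.40 (0.0938). Leaving out replicate 2 or replicate 3 ended every call of the fit with the block, and without replicate 1 it called 1027 higher and 178 lower. After quantile normalization the 94 higher calls with the block became 31. The named genes whose call was lost had limma adjusted p-values of 0.101 (Zfp217) to 0.201. Among them were Dusp1 (0.111), Fos (0.136), Ddit4 (0.16), Gadd45b (0.191), Clk4 (0.105), Pvr (0.109), Adm (0.189), Rgs2 (0.201), Rrm2 (0.178), H2aw (0.201), H2bc8 (0.168), H2bc14 (0.141), Zfp39, Zfp382, Zfp719 and Zfp60. After median centring Fos, Clk4, Pvr and Rrm2 lay at 0.104, and Zfp39, Zfp382 and Zfp719 also missed the threshold.

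Gene lists were described by their calls in the paired fit. Beside them stand 7.76% higher and 2.23% lower of all 19938 genes, and 15.3% higher and 1.47% lower of the 9545 genes with a mean of at least log2 6, whose median log2 difference was 0.0741. With the block, 0.461% of all genes were higher and 0.01% lower. Of the genes named below as called in the paired fit, Egr2, Nfkbia, Birc2, Dusp5, Mdm2, Ddit3, Upf2, Casc3, Cdc45, Lypd2, Gal3st2c and Cpne7 were not called after quantile normalization (limma adjusted p of 0.101 to 0.472). Without replicate 2 the paired fit did not call Fos (0.192), Dusp1 (0.13), Clk4 (0.126), Cd69 (0.184), Tnfaip3 (0.21), Nfkbia (0.189) and Eid3 (0.149), among others.

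Immediate early genes code mostly for transcription factors of the AP-1, Egr and Klf families. Of 27 measured, 10 rose in the paired fit (37%), none fell, and the median difference was 0.267. Fos, a component of AP-1, read 6.1, 5.81 and 5.42 with DMSO and 6.29, 7.62 and 7.41 with CHX. Replicates 2 and 3 rose by 1.81 and 1.99, replicate 1 by 0.19, and the groups did not overlap. The log2 difference was 1.33 (2.51-fold, limma adjusted p = 0.338 unpaired, 0.0835 with the block and 0.0353 paired). Ier2, a nuclear regulator of transcription, rose from 7.08, 7.17 and 7.36 to 7.48, 8.43 and 9.07, a difference of 1.12 (limma adjusted p = 0.0207 paired). Jun, the AP-1 partner of Fos, rose by 0.89 (0.0279 paired) and Myc, a driver of cell growth, by 0.76 (0.0238 paired), both with overlap between groups. Myc read 11.64, 10.68 and 10.59 with DMSO and 11.89, 11.69 and 11.61 with CHX, so that the DMSO array of replicate 1 stood near the CHX arrays. Smaller increases were those of Klf6 (0.71), Ier5 (0.49), Ier3 (0.43), Btg2 (0.50) and Egr2 (0.52), where replicate 1 of Egr2 did not change, and of Klf10 (0.45). Only Fos was called with the block. The list had 17 calls after median centring of the arrays and 8 after quantile normalization, and 13, 2 and 6 without replicates 1, 2 and 3.

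The MAP kinase feedback list holds phosphatases and Sprouty or Spred inhibitors that end signalling of the kinases upstream of immediate early genes. Of its 15 members 8 rose in the paired fit (53.3%) and none fell, with a median of 0.288. Dusp1, a nuclear phosphatase of p38, JNK and ERK, read 7.97, 8.06 and 7.36 with DMSO and 8.48, 9.74 and 9.63 with CHX. The pair differences of 0.51, 1.68 and 2.26 averaged 1.49, the second largest increase among the block calls (2.80-fold, limma adjusted p = 0.289 unpaired, 0.0633 with the block and 0.0206 paired). The other members that rose were Dusp2 (0.58), Dusp6 (0.44), Dusp16 (0.40), Spry1 (0.37), Dusp8 (0.35), Dusp5 (0.32) and Spred2 (0.29). Without replicates 1, 2 and 3 the calls were 10, 1 and 2, and after quantile normalization 5.

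In the list of NF-κB subunits and feedback inhibitors 5 of 18 rose (27.8%). All 5 are inhibitors or modulators, and a difference between these and the DNA-binding subunits was not tested. Tnfaip3, the deubiquitinase A20, read 6.89, 6.29 and 6.25 with DMSO and 7.02, 7.39 and 7.37 with CHX, a difference of 0.78 (limma adjusted p = 0.0372 paired, 0.177 with the block). Nfkbia, which holds NF-κB in the cytoplasm, rose by 0.45, Nfkbiz by 0.36, and Birc2, a ubiquitin ligase of the pathway, by 0.34 in the paired fit. The fifth was Nfkbie. No member was called with the block, and the paired fit called none without replicate 2 or replicate 3. Of 14 inducible kinases 5 rose (35.7%), led by Map3k14 (0.74), the kinase of the noncanonical NF-κB pathway, and with them Sik1 (0.53). The kinases had 1 and 2 calls without replicates 2 and 3. Among surface molecules of activated T cells 3 of 20 rose (15%), which is near the 15.3% of all genes at log2 6 or more. They were Cd69 (1.21), Tnfsf9 (0.92), the ligand of 4-1BB, and Pdcd1 (0.41), the receptor PD-1. Cd69 read 7.41, 7.71 and 7.61 with DMSO and 7.63, 9.21 and 9.51 with CHX, so that replicate 1 rose by 0.22 alone and the groups overlapped. Of 22 T cell cytokines and chemokines 1 rose (4.55%), Tnf, by 0.40. Without replicate 2 or replicate 3 the surface list had 1 call and the cytokine list 0.

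Of 15 regulators of mRNA decay 3 rose in the paired fit (20%) and none with the block. Zfp36 (tristetraprolin), which brings short-lived mRNAs to degradation, read 6.17, 6.8 and 7 with DMSO and 6.68, 7.95 and 8.07 with CHX, a difference of 0.91 (limma adjusted p = 0.00866 paired, 0.158 with the block). The groups overlapped, and each pair rose by at least 0.51. Zfp36l1, of the same family, rose by 0.72 and Tob1, a deadenylation adaptor, by 0.29.

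Some growth arrest and stress genes rose, while not all of their lists exceeded the share of all genes. Gadd45b, a stress sensor upstream of p38, read 7.43, 7.51 and 7.47 with DMSO and 8.13, 8.41 and 8.51 with CHX, a difference of 0.88 (limma adjusted p = 0.206 unpaired, 0.0633 with the block and 0.00475 paired). Gadd45g rose by 1.08 (limma adjusted p = 0.735 unpaired, 0.219 with the block and 0.00475 paired). Gadd45a rose by 0.51 (limma adjusted p = 0.735 unpaired, 0.177 with the block and 0.0131 paired). Both had overlap between groups. Of the 12 measured transcripts known as targets of nonsense-mediated decay, a surveillance process that needs translation, 6 rose (50%, median 0.244): Gadd45b, Map3k14, Gadd45a, Ddit3 (0.55), Atf4 (0.33) and Tbl2 (0.24). Of 12 decay factors 3 rose, Upf2 (0.37), Smg8 (0.26) and Casc3 (0.24), while Upf1 and Dhx34 differed by 0.30 and 0.21 with limma adjusted p-values of 0.12 and 0.143 paired. After quantile normalization the targets had 4 calls and the factors 0, and without replicates 2 and 3 the targets had 2 and 3 and the factors 0 and 0. The ATF4 and integrated stress list had 4 of 27 higher (14.8%), Ddit4, Ddit3, Atf4 and Ppp1r15a (0.41), and a median of -0.00105. The unfolded protein response had 2 of 18 (11.1%). The shares of both lists were under the 15.3% of all genes at log2 6 or more. The p53 targets had 5 of 20 (25%), among them Mdm2 (0.35), the ubiquitin ligase of p53, and Btg2. Interferon-stimulated genes had 4 of 22 (18.2%), near that 15.3%, among them the transcription factors Stat2 (0.72) and Irf1 (0.66). Of 15 Id, Hes, Hey and Bhlhe repressors and E proteins 4 rose, Bhlhe41 (0.63), Bhlhe40 (0.60), Id2 (0.55) and Hes1 (0.29). Without replicate 2 and without replicate 3 the calls were 1 and 1 for the ATF4 list and 0 and 0 for the unfolded protein response. They were 0 and 2 for p53 targets, 1 and 1 for interferon-stimulated genes, and 2 and 2 for the list of these repressors and E proteins. After quantile normalization the unfolded protein response had 0 calls and p53 targets had 2.

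SR proteins choose splice sites, and Clk kinases set their phosphorylation. Of 15 measured members 8 rose in the paired fit (53.3%), none fell, and 14 of 15 differences were positive, with a median of 0.238. Beside Clk1, Clk4 read 8.92, 8.78 and 8.7 with DMSO and 9.27, 9.78 and 9.83 with CHX, a difference of 0.83 (limma adjusted p = 0.277 unpaired, 0.0772 with the block and 0.0175 paired). Clk3 rose by 0.66 (limma adjusted p = 0.346 unpaired, 0.112 with the block and 0.024 paired). The SR factors moved less, with Tra2a at 0.37, Srsf10 at 0.36, Srsf3 at 0.26, Srsf11 at 0.25 and Srsf4 at 0.24. The calls were 6, 1 and 3 without replicates 1, 2 and 3, and 6 after quantile normalization.

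Dusp1 and Clk4 are among the 4 of 79 block-higher genes with a RefSeq promoter window whose window holds TGACGTCA, the full cAMP response element, which reads the same on both strands. The other 2 are Ice2 and Phospho2. That is 5.06%, against 2.03% of 27025 genes, 1.79% of 32851 windows and 3.85% of the 7721 genes with a mean of at least log2 6. The share is close to that of genes at such levels. The windows are 300 bases long, most of it before the start of transcription as RefSeq (GRCm38.p6) places it, and are shown with the element in capitals, for Dusp1 at chr17:26508423-26508722 on the minus strand and for Clk4 at chr11:51262864-51263163 on the plus strand.
Dusp1: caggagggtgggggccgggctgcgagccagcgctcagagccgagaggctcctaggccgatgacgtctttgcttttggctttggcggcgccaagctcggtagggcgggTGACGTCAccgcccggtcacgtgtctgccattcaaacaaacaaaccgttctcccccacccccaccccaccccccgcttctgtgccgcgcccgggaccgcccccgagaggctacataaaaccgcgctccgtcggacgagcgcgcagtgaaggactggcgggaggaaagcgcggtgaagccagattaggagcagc
Clk4: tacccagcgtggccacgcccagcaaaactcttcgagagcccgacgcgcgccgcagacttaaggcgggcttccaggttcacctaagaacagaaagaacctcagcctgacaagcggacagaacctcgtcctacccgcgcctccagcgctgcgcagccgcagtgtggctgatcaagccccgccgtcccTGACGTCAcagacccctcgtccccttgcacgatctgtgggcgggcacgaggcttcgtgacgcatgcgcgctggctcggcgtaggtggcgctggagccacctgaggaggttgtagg

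Replication-dependent histones are the genes whose mRNAs lack a poly(A) tail and are kept at the level of DNA synthesis by regulated decay. They were the list with the highest share of calls. Of 29 measured, matched through older symbols, 20 rose in the paired fit (69%), 5 of them with the block, and none fell. All 29 differences were positive, with a median of 0.372 and a range of 0.0339 to 0.929, and the groups did not overlap in 15 (12.9% of all probe sets at log2 6 or more). H1f1, a linker histone, read 10.53, 10.49 and 10.62 with DMSO and 11.06, 11.59 and 11.74 with CHX, a difference of 0.92 (limma adjusted p = 0.104 unpaired, 0.0342 with the block and 0.00791 paired). H4c14 read 10.5, 10.66 and 10.91 with DMSO and 11.16, 11.5 and 11.6 with CHX, a difference of 0.73 (limma adjusted p = 0.0402 with the block). In both, the lowest CHX value was that of replicate 1. H2ac4 rose by 0.93, H2bc3 by 0.83, H2aw by 0.75, H2bc8 by 0.65, H2bc14 by 0.63, H4c6 by 0.58 and H1f2 by 0.54 in the paired fit. Histone genes are near-identical copies, so that a probe set can read several of them, and the 29 values are not independent. The list had 19, 11 and 12 calls without replicates 1, 2 and 3, and 21 after median centring and 16 after quantile normalization.

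Of 36 DNA replication genes 9 rose in the paired fit (25%) and 1 with the block. All 36 differences were positive, with a median of 0.156, at a median DMSO level of log2 9.28. The median of all probe sets with a 12-array mean between log2 9 and 10 was also above 0 (0.077). The 9 genes that rose were Gins3 (0.42) and Cdc45 (0.33) of the replicative helicase, Cdt1 (0.34), which loads it at origins, Rrm2, Cdc6, Orc1, Orc6, Rfc3 and Mcm10. The paired fit called none of them without replicate 2 or replicate 3, and 4 after quantile normalization. G1 regulators had 6 of 21 (28.6%), among them the inhibitors Cdkn1b and Cdkn2d and the cyclin Ccne2, with 1 call after quantile normalization and 0 without replicate 2 or replicate 3. Mitosis genes had 3 of 29 (10.3%). They had 10 after median centring, 0 higher and 2 lower after quantile normalization, and 0 without replicate 2 or replicate 3. Ribosome biogenesis genes had 9 of 52 (17.3%), with 3 after quantile normalization and 1 without replicate 2 or replicate 3, among them Nop56 (0.42), a core protein of box C/D particles, and Tsr1 (0.35), a factor of the small subunit.

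The machinery of translation itself gave few calls. Of 42 translation factors Eif4a2 alone was higher (2.38%), and of 18 tRNA synthetases 1 (5.56%). No ribosomal protein of 56 was called in either direction, and their median was -0.0666, with 8 positive values and 14 genes with all CHX below all DMSO values (3.29% of all probe sets at log2 6 or more). The smallest p-values of that list belonged to Rps19 (-0.27), Rps14 (-0.21) and Rpl37a (-0.22), with limma adjusted p-values of 0.102, 0.154 and 0.1 paired. After quantile normalization 3 ribosomal proteins were lower. Respiratory chain and ATP synthase genes had 0 higher and 1 lower of 44, Uqcrq, a subunit of complex III (-0.31), while Atp5e differed by -0.24 without a call. The proteasome had 1 higher of 35 (2.86%), with Psmb6 at -0.22 and no call. None of 13 Bcl2 family members was called. T cell receptor signalling had 2 of 22 (9.09%), Malt1 and Grap2, with 0 after quantile normalization or without replicate 2 or replicate 3. Of 13 T cell identity genes Gata3 alone was higher, by 0.38. None of the B cell and myeloid markers was called, and Col3a1 was the 1 lower member of the 10 erythroid and fibroblast markers.

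**Figure D2:**
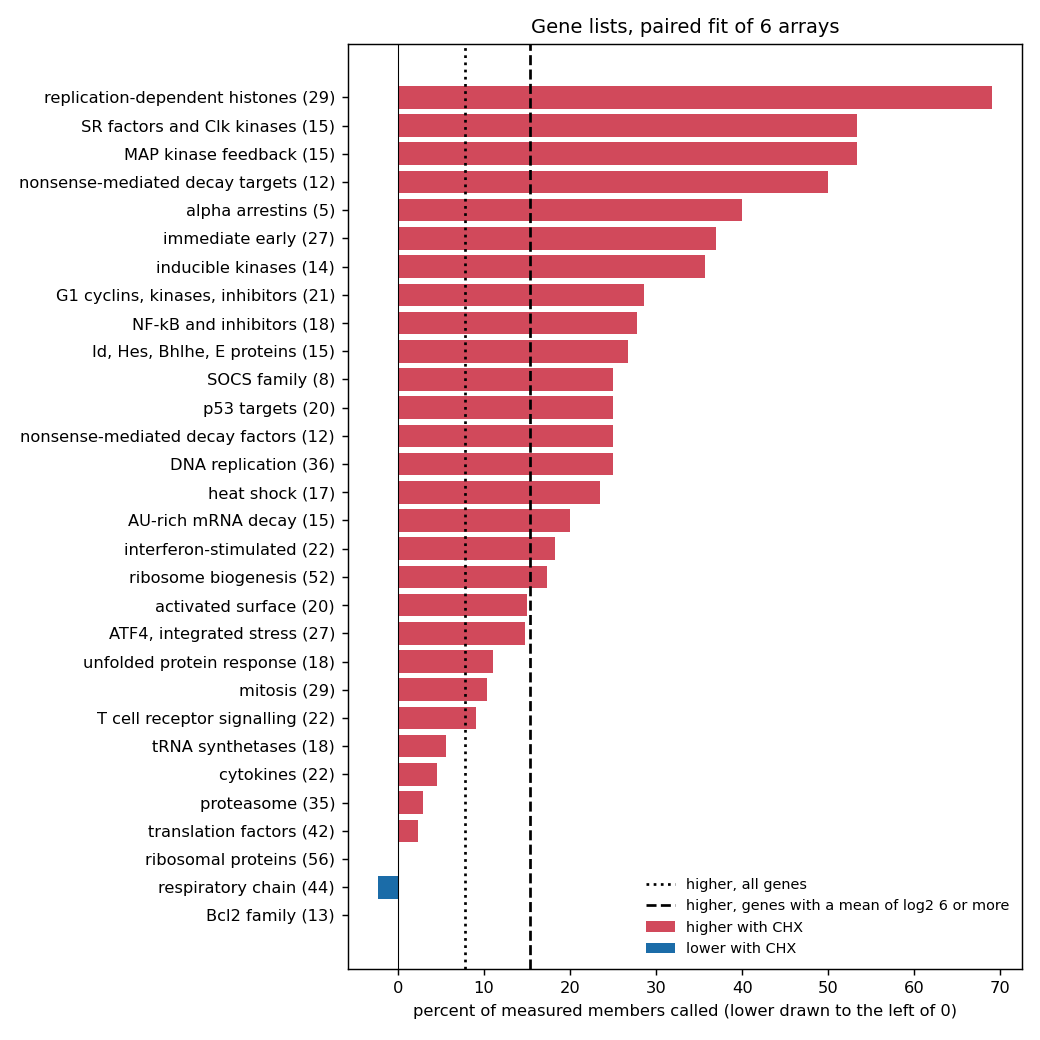
Percent of the measured members of 30 gene lists called higher (red, to the right) or lower (blue, to the left) with CHX in the paired fit of 6 unstimulated arrays, with the number of measured members in parentheses. The dotted line is the 7.76% of all genes called higher and the dashed line the 15.3% of genes with a mean of at least log2 6; histones reach 69%, and ribosomal proteins and the Bcl2 family have no bar.

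Zinc finger genes were grouped by symbol after their values were seen, since 17 of the 94 probe sets higher with the block had a Zfp symbol. Of all 355 probe sets with such a symbol, the Zfp36 family left out, 106 were higher in the paired fit (29.9%) and 4 lower (1.13%), beside 7.62% and 2.25% of all tested probe sets. Their median difference was 0.113 and their median DMSO level log2 5.99. Zscan and Zkscan genes, a related class, had 9 higher of 24 (37.5%). Most of these proteins carry many zinc fingers and are known or thought to bind DNA. Zfp39 read 6.86, 6.64 and 6.62 with DMSO and 7.51, 7.27 and 7.71 with CHX, a difference of 0.79 (limma adjusted p = 0.0743 with the block). Zfp382 rose by 0.73, Zfp719 by 0.72 and Zfp60 by 0.72, all without overlap between groups. All CHX values lay above all DMSO values in 7.18% of all probe sets and 12.9% of those at log2 6 or more. These genes were chosen after their values were seen. The class had 77 higher after quantile normalization, and 126, 25 and 33 without replicates 1, 2 and 3.

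The sign of the difference depended on the level of the probe set. Probe sets were classed by their mean over all arrays of the series, those with P/I included. The median difference was -0.055 for probe sets under log2 5 and -0.084 between 5 and 6. It was 0.021 between 6 and 7, 0.11 between 7 and 8, and fell back to 0.032 at log2 10 or more. The share called higher in the paired fit went from 0.317% under log2 5 to 21.1% between 7 and 8 and 5.23% at log2 10 or more. After quantile normalization of the probe sets the medians of all 7 level classes lay within 0.021 of 0, and 65.7% of the paired calls were higher, against 77.2% as deposited and 92.4% after median centring. How much of the many small increases comes from this level-dependent shift was not tested.

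**Figure D3:**
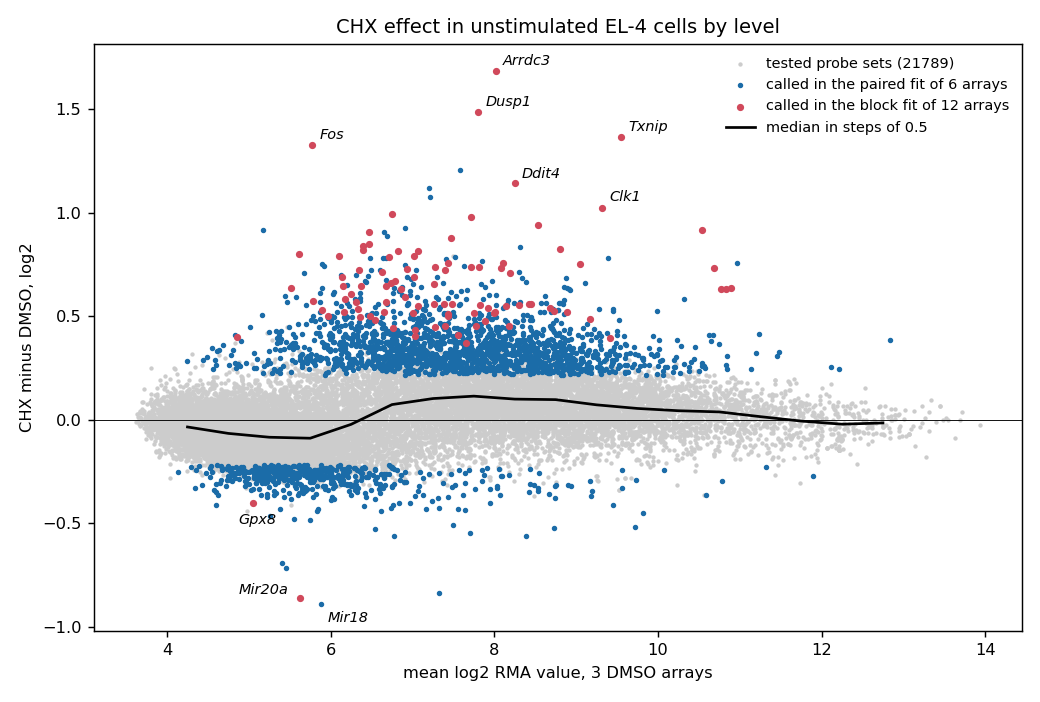
CHX minus DMSO on the log2 scale against the mean of the 3 DMSO arrays for the 21789 tested probe sets, with calls of the paired fit in blue, calls of the fit with the replicate block in red, and the median in steps of 0.5 as a line. The median line lies below 0 under log2 6 and above 0 between 7 and 10, while the named genes lie far from it.

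The decreases were led by small RNA genes. The miR-17-92 locus is a cluster of microRNAs cut from 1 primary transcript and known as a growth-promoting target of Myc. All 5 of its single-symbol hairpin probe sets fell in the paired fit, against 2.25% of all tested probe sets. The Mir92-1 hairpin is left out, since its probe set pairs with several symbols. Small RNA genes were passed over by the rule for named genes, and this locus was chosen after its values were seen. A probe set here reads RNA of the locus and cannot tell the primary transcript from its products. The mature sequences follow in the order of their hairpins, as given by RefSeq, with the seed (bases 2 to 8), which pairs with target mRNAs, in capitals. They show that the 5 hairpins hold 3 seeds, with AAAGUGC shared by miR-17 and miR-20a and GUGCAAA by the miR-19 pair.
miR-17-5p: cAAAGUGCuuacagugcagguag
miR-18a-5p: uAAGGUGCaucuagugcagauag
miR-19a-3p: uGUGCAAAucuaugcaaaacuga
miR-20a-5p: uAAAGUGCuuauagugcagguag
miR-19b-3p: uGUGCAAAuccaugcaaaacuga
The 5 hairpins span 721 bases of the plus strand at chr14:115043671-115044391 (GRCm38.p6), from Mir17 at 115043671 to Mir19b-1, which ends at 115044391.

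Mir20a read 5.74, 5.62 and 5.5 with DMSO and 5.19, 4.64 and 4.46 with CHX, a difference of -0.86 (1.81-fold lower, limma adjusted p = 0.338 unpaired, 0.0498 with the block and 0.00708 paired). It was 1 of the 2 probe sets called lower with the block, a call that was lost after quantile normalization (limma adjusted p = 0.111). Mir18 read 5.92, 5.95 and 5.76 with DMSO and 5.62, 4.68 and 4.67 with CHX, a difference of -0.89 (0.0215 paired, 0.112 with the block). In both the decrease was smaller in replicate 1, and no CHX value lay within the DMSO range. All CHX values lay below all DMSO values in 9.12% of all probe sets. The share was 3.29% at a mean of log2 6 or more, a level this locus did not reach. Mir19a read 5.27, 5.62 and 5.45 with DMSO and 5.17, 4.48 and 4.56 with CHX (-0.71, limma adjusted p = 0.0435 paired). Mir19b-1 read 5.53, 5.52 and 5.16 with DMSO and 5.15, 4.54 and 4.45 with CHX (-0.69, 0.0146 paired). Both also separated, although the CHX value of replicate 1 of Mir19b-1 lay just under the DMSO value of replicate 3. Mir17 fell by 0.46, from 5.39, 5.18 and 5.22 to 5.01, 4.65 and 4.75 (0.0135 paired). The host gene Mir17hg differed by -0.41, with 0.12 in replicate 1 and -0.6 and -0.75 in the others, and was not called (0.134 paired). Levels of all 6 probe sets were under log2 6, where the median of all probe sets was also below 0 by up to 0.084. In the paired fit all 5 hairpin probe sets stayed called after quantile normalization, with limma adjusted p-values of 0.00977 to 0.071, and without replicate 2 they had 0.0695 to 0.228.

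**Figure D4:**
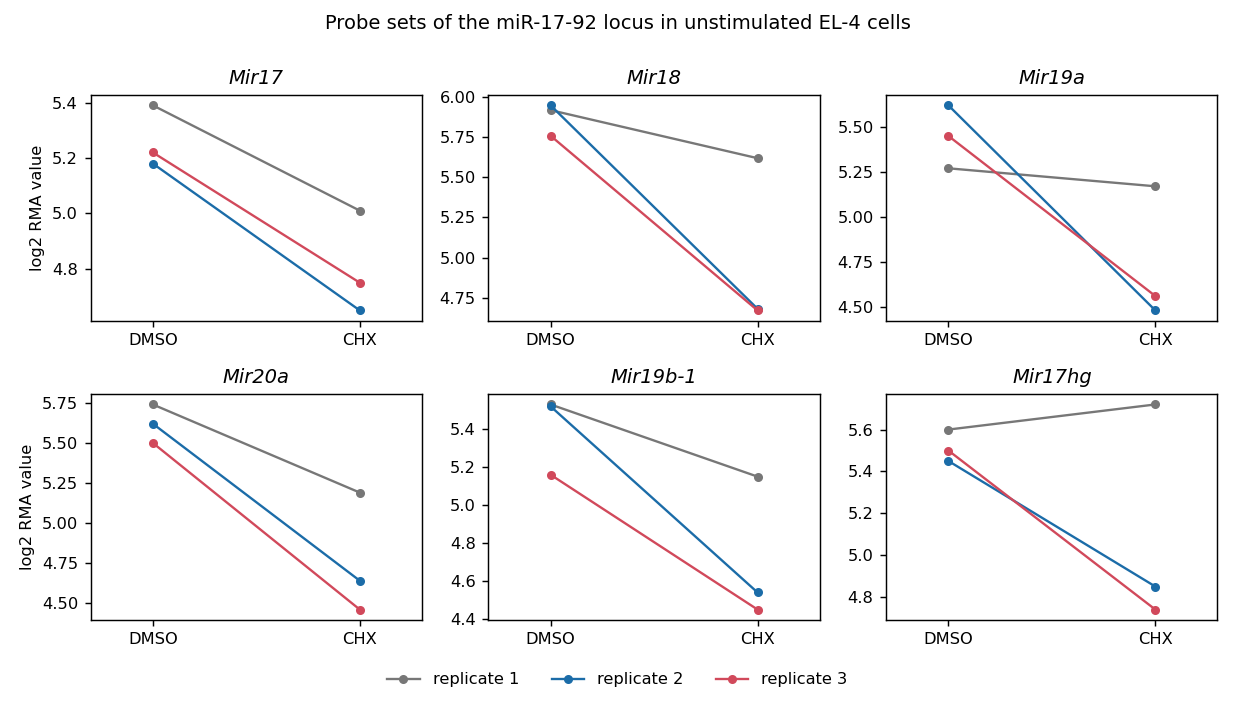
Log2 RMA values of 6 probe sets of the miR-17-92 locus in unstimulated EL-4 cells, with 1 line per replicate number from its DMSO to its CHX array and a vertical axis of its own per panel, which does not start at 0. The lines of all 5 hairpin probe sets fall in all replicates, and Mir17hg climbs in replicate 1 alone.

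Over all 298 microRNA probe sets with 1 symbol, 27 were lower in the paired fit (9.06%) and 0 higher, with a median difference of -0.0651. Small nucleolar RNAs of the box C/D class, which guide methylation of ribosomal RNA, had 11 lower of 33 (33.3%) and 0 higher, with a median of -0.213. They lay at a median DMSO level of log2 7.85, where the median of all probe sets was above 0. Snord82 read 7.91, 7.48 and 7.71 with DMSO and 7.31, 6.78 and 7.36 with CHX, a difference of -0.55 (limma adjusted p = 0.0146 paired, 0.14 with the block). Snord15b and Snord35b both fell by 0.51, and none of these 3 had a CHX value within its DMSO range. All CHX values lay below all DMSO values in 9.12% of all probe sets and 3.29% of those at log2 6 or more. The H/ACA class had 5 lower of 23 (21.7%), with a median of -0.163. These classes were also formed after their values were seen. Without replicates 1, 2 and 3 the box C/D class had 17, 2 and 3 lower. It had 7 after median centring and 17 after quantile normalization. The microRNA class had 37, 3 and 5 lower without replicates 1, 2 and 3, 18 after median centring and 26 after quantile normalization. For the H/ACA class the numbers were 11, 0 and 1, then 5 after median centring and 9 after quantile normalization. Of the 5 measured genes on the list of small nucleolar RNA hosts Snhg5 was higher, by 0.35, and Snhg15 lower, with a difference of -0.295. That list does not hold the host Snhg16, which rose by 0.73 (limma adjusted p = 0.00708 paired, 0.029 with the block).

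Of the 5 probe sets lower by more than 1.5-fold in the paired fit, 4 belonged to the miR-17-92 locus and the other to Eid3. Eid3, an inhibitor of the coactivator p300 and subunit of an SMC complex, read 7.26, 7.65 and 7.07 with DMSO and 7.02, 6.25 and 6.2 with CHX, a difference of -0.84 (1.78-fold lower, limma adjusted p = 0.0332 paired, 0.118 with the block). Its replicate 1 fell by 0.24 only, and the CHX value of that replicate lay just under the lowest DMSO value. Gpx8, a peroxidase of the endoplasmic reticulum, was the other probe set called lower with the block. It read 4.83, 5.21 and 5.12 with DMSO and 4.55, 4.77 and 4.64 with CHX, a difference of -0.40 (limma adjusted p = 0.0808 with the block, 0.0227 paired). After quantile normalization the value with the block was 0.201. The next coding genes by size in the paired fit were Tmem38b (-0.48), Itpripl2 (-0.48), Evx2 (-0.44), Tchh (-0.43), Snx21 (-0.38), Lypd2 (-0.38), Rasef (-0.38), Gal3st2c (-0.37), Krtcap3 (-0.37), Cpne7 (-0.37), Rtn4rl2 (-0.37), Tmem151b (-0.36) and Ang5 (-0.36). All 13 had DMSO means of log2 4.62 to 7.32, and they include genes known from hair follicles (Tchh) and from limb and neural development (Evx2). By their mean over all arrays of the series, 99 of the 491 lower calls lay under log2 5 and 234 between 5 and 6.

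More probe sets were called for CHX in cells stimulated with P/I for 4 h, on the other 6 arrays. There 2868 probe sets were higher (13.2%) and 2531 lower (11.6%) with CHX in the unpaired fit. The difference between the pair of CHX effects, tested as an interaction in the same fit, was above 0 for 1261 probe sets (5.79%) and below 0 for 1687 (7.74%). Without replicate 2 these were 353 and 810, and without replicate 3 they were 223 and 443. Of the 94 probe sets higher at rest with the block, 51 were also higher with CHX during P/I (54.3%), 10 were lower (10.6%) and 33 had no call. Among all probe sets averaging log2 6 or more the shares were 22.5% higher and 20.4% lower. Of the 1661 higher in the paired fit 711 were higher during P/I (42.8%), and of the 491 lower 45 were lower (9.16%), which is under the 11.6% of all probe sets.

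Several immediate early and feedback genes, but not all, had a larger CHX effect with P/I. CHX raised Fos by log2 3.79 during P/I against 1.33 at rest, Dusp1 by 3.79 against 1.49, Jun by 3.67 against 0.89, Zfp36 by 3.63 against 0.91 and Tnfaip3 by 3.15 against 0.78. Each of these differences passed the interaction test, with limma adjusted p-values of 0.00216, 0.00378, 0.015, 0.00237 and 0.000606. The interaction also passed for the alpha-arrestins Arrdc3 (4.01 against 1.69, 0.000739) and Txnip (4.56 against 1.37, 0.00582), whose comparison groups differed. With DMSO, Txnip read log2 9.55 at rest and 6.88 with P/I, and Arrdc3 8.02 and 7.01. With CHX, Txnip read 10.92 and 11.44, and Arrdc3 9.71 and 11.02. Fos read 5.78 and 6.97 with DMSO and 7.10 and 10.76 with CHX. Of 29 histones 28 rose with CHX during P/I, with a median of 1.5, and 25 had an interaction above 0. Of 27 immediate early genes 22 rose and 17 had an interaction above 0. The MAP kinase feedback list did not shift as a whole, with a median of 0.288 at rest and 0.262 during P/I, and 3 interactions above and 2 below 0. The CHX effect was 0.58 at rest and 0.26 during P/I for Dusp2, 0.37 and 0.01 for Spry1, 0.32 and 0.09 for Dusp5, and 0.43 and 0.32 for the immediate early gene Ier3, with no interaction called in these 4.

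In another set the CHX effect was of like size in both conditions. Rasl11b rose by 0.71 at rest and 0.53 during P/I, Zfp217 by 0.71 and 0.52, Zfp263 by 0.79 and 0.93, and Clk1 by 1.03 and 1.38. Their interactions of -0.18 (SE 0.12), -0.19 (SE 0.15), 0.14 (SE 0.16) and 0.35 (SE 0.19) did not pass the test, which does not show that the effects were equal. The 5 hairpin probe sets of the miR-17-92 locus were lower during P/I as well, by log2 0.48 to 1.25, with no interaction called: Mir17 at -0.48, Mir18 at -1.25, Mir19a at -1.10, Mir20a at -1.19 and Mir19b-1 at -0.99. Snord35b fell by more during P/I, with an effect of -1.81 against -0.51 (interaction -1.30, limma adjusted p = 0.00555), and Eid3 likewise, with -2.03 against -0.84 (interaction -1.20, 0.0289).

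Another group rose at rest and not during P/I. The CHX effect was 1.14 at rest and -0.51 during P/I for Ddit4, 0.82 and -0.75 for Pvr, 0.91 and -0.62 for Exog, 0.79 and -0.68 for Palb2, and 0.76 and -0.36 for Med18. All 5 interactions passed, at limma adjusted p-values of 0.0179, 0.00283, 0.00601, 0.0594 and 0.00732. Id2 went from 0.55 to -1.78 and Gadd45a from 0.51 to -0.86, with interactions of -2.33 and -1.37. The levels of Pvr with DMSO were log2 6.82 at rest and 8.24 with P/I, and those of Gadd45a 7.84 and 9.36, so that the comparison groups themselves differed.

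**Figure D5:**
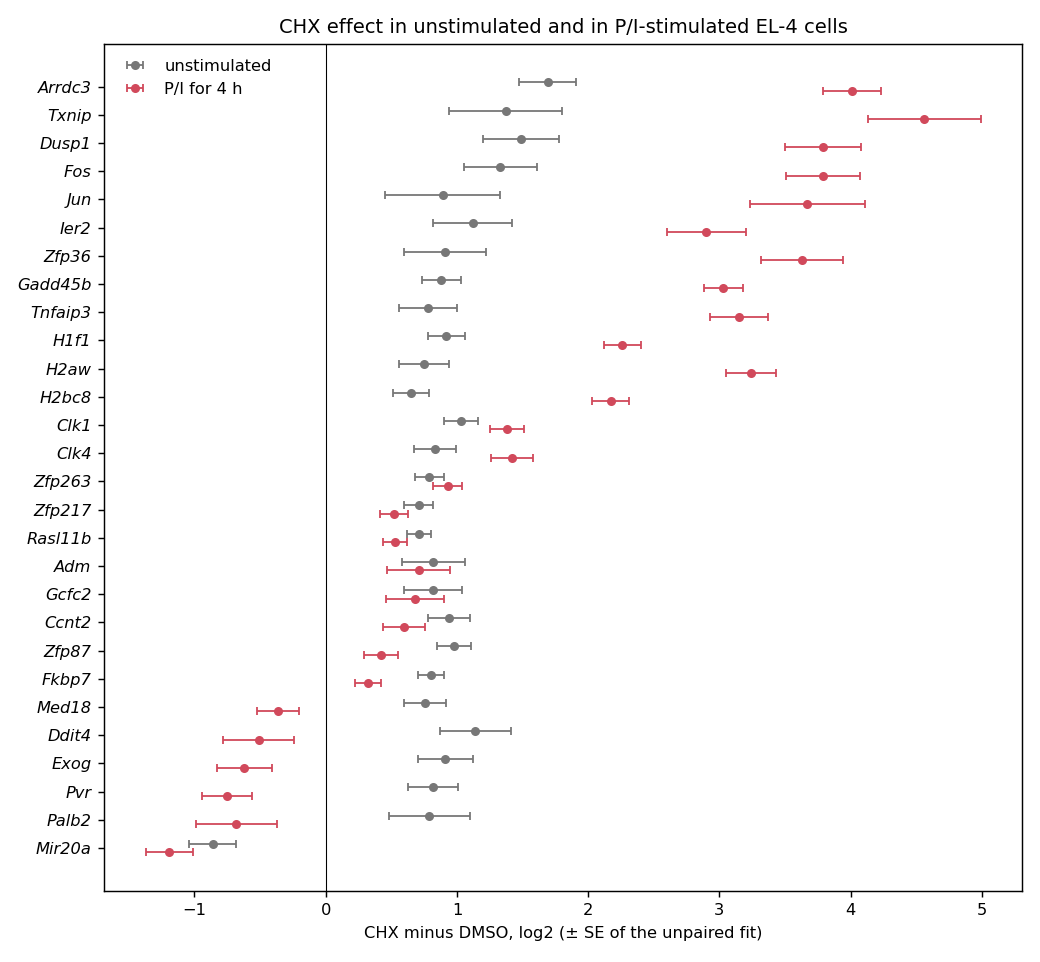
CHX minus DMSO on the log2 scale for 28 genes in unstimulated cells (grey) and during 4 h of P/I (red), with bars of 1 SE from the unpaired fit of 12 arrays (n = 3 per group). From the top, the red points lie far to the right of the grey ones down to H2bc8, closer to them from Clk1 to Fkbp7, left of 0 from Med18 to Palb2, and left of 0 in both conditions for Mir20a.

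Il2, Csf2, Irf4, Tnfrsf4 and Tnfrsf18, which are known for their induction in activated T cells, were not called at rest, unlike Tnf, Cd69, Tnfsf9 and Pdcd1 in the paired fit. Il2, the T cell growth factor, read 4.43, 4.57 and 4.67 with DMSO and 4.38, 4.71 and 4.85 with CHX, a difference of 0.09 (limma adjusted p = 0.981 unpaired and 0.484 paired, with a paired SE of 0.07). Csf2, which codes for GM-CSF, differed by 0.13, the transcription factor Irf4 by 0.04, and the receptors Tnfrsf4 (OX40) and Tnfrsf18 (GITR) by 0.07 and 0.03, with paired limma adjusted p-values of 0.426 to 0.831. During P/I their CHX effects were -5.31, -2.93, -3.53, -2.53 and -1.02, and all 5 interactions passed the test. On every array at rest Il2, Csf2 and Irf4 read at most log2 5.57.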

How the data were processed

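Values were the deposited log2 RMA values of 12 arrays. The authors adjusted the background for probe sequence, normalized by quantiles and summarized probes in Partek; versions are not given in the sources used here. Samples were grouped by their titles, with 3 biological replicates per group, and the number of arrays limits the precision. A model with 1 mean per group was fitted by limma 3.58.1 under R 4.3.3 (lmFit, eBayes, two-sided). Calls were made below an adjusted p of 0.1 (Benjamini-Hochberg), adjusted across the 21789 probe sets that GEO's platform annotation gives 1 gene symbol.

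The replicate numbers of the titles were taken as pairs because same-numbered unstimulated arrays deviated together in all 3 pairs. The correlations were 0.515 to 0.752, against -0.586 to 0.315 for unstimulated arrays of the other group with a different number. Deviations were taken from means of 3 arrays, so those of a group cancel and correlations between different numbers are pushed down. Between replicates 2 and 3 of the unlike groups they were 0.257 and 0.315. Over the 18 same-numbered pairs of all groups the range was 0.0691 to 0.752. The fit with the number as a block used 12 arrays, and the paired fit the 6 unstimulated ones.

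Named were up to 15 largest increases and decreases without overlap between groups in each fit, leaving out small RNA and predicted genes, up to 4 members of each of 44 gene lists, 5 interactions of each sign and genes the study discusses. Others (Ice2, Palb2, Med18, Gadd45g, Snhg16, Rrm2, the small RNAs, 4 Zfp genes and further called list members) were chosen after their values were seen. For a gene with several probe sets, that with the highest mean stood for it. Members and lists were chosen with earlier results of these data known. No list was tested as a set. Alternatives were median centring, quantile normalization, other probe set filters, thresholds and variance models, and arrays left out. The fits were tested on simulated data. Sequences and coordinates are RefSeq's (GRCm38.p6).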

Additional observations from a re-analysis of the deposited data

Results flagged for a closer look

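The CHX effect during P/I differed from that in unstimulated cells, by the interaction term of the unpaired limma fit (adjusted p under 0.1), for 1261 probe sets with a larger value and 1687 with a smaller value during P/I, and for 53 of the 127 genes examined by name. For these genes the values below are the CHX effect during P/I minus that at rest on the log2 scale, and time in CHX and stimulation cannot be told apart in any of them.

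Of the 30 genes above 0, the AP-1 and Egr genes had differences of 2.46 (Fos), 2.78 (Jun), 3.45 (Fosb) and 3.77 (Egr4). Other immediate early and feedback genes had 1.78 (Ier2), 0.80 (Ier5), 2.67 (Btg2), 2.30 (Dusp1), 2.72 (Zfp36), 2.37 (Tnfaip3), 1.00 (Nfkbia), 2.15 (Gadd45b) and 1.34 (Irf1). The alpha-arrestins Arrdc3 and Txnip had 2.32 and 3.20, and their DMSO means were lower with P/I than at rest. Histone genes had 5.09 (H2bc4), 2.52 (H1f2), 2.48 (H2aw), 1.75 (H2bc3), 1.52 (H2bc8), 1.47 (H2ac4), 1.34 (H1f1), 1.20 (H2bc14), 0.95 (H4c14) and 0.90 (H4c6). H2bc4 was not called at rest, where its difference was 0.20. The others were Ifnz (3.67), an interferon gene, Zfp719 (1.34), Casc3 (0.60), Rtn4rl2 (0.60) and Evx2 (0.59).

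Of the 23 genes below 0, cytokine, receptor and regulator genes of activated T cells had -6.13 (Tnip3), -5.40 (Il2), -4.58 (Sema7a), -4.57 (Ccl1), -4.00 (Il4), -3.57 (Irf4), -3.06 (Csf2), -2.59 (Tnfrsf4) and -1.05 (Tnfrsf18). None of these 9 was called at rest. Genes that rose at rest in the paired fit had -2.33 (Id2), -1.65 (Ddit4), -1.57 (Pvr), -1.53 (Exog), -1.47 (Palb2), -1.37 (Gadd45a), -1.12 (Med18), -0.57 (Zfp87), -0.49 (Mdm2) and -0.48 (Fkbp7). Dhx34 had -1.46, Snord35b -1.30, Eid3 -1.20 and Uqcrq -0.34.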

How the results depend on the processing

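The number of calls depended most on how replicates entered the fit. The 7 higher and 0 lower probe sets of the unpaired fit became 94 and 2 with the replicate block and 1661 and 491 in the paired fit of 6 arrays, and 0 higher in an unpaired fit of 6 arrays. They became 3 higher after quantile normalization and 0 over all probe sets with or without a symbol. With single arrays or replicate numbers left out they ranged from 0 to 656 higher and 0 to 86 lower. Without the CHX array of replicate 1 there were 38 and 4, and without replicate 1 there were 656 and 86. Without DMSO replicate 2 or 3, CHX replicate 2 or 3, or replicate number 2 or 3, there were 0 higher. In the paired fit the 1661 and 491 became 2673 and 220 after median centring, 865 and 113 at an adjusted p under 0.05 and 735 higher after quantile normalization, with ranges of 151 to 2240 and 13 to 1058 when a replicate was left out. With the block the 94 and 2 became 31 and 1 after quantile normalization and 27 and 1 at an adjusted p under 0.05, with 1 lower after median centring, 9 lower with a variance trend, and ranges of 0 to 1027 and 0 to 178 when a replicate was left out. The 1261 and 1687 interactions became 2165 and 2702 with the replicate block and 756 above 0 after median centring, with ranges of 223 to 2101 and 443 to 2291 when a replicate was left out. The alternatives within the paired fit and within the fit with the block were chosen after seeing the data. The cause of these shifts was not tested. With 1 replicate left out, a paired fit rests on 2 pairs.

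Of the named genes, only some that were not called at rest changed sign. Tnfrsf18 turned to -0.01 and Tnip3 to 0.01 after quantile normalization. With arrays or replicates left out, the differences at rest ran from -0.01 to 0.23 for Il2, -0.07 to 0.29 for Csf2, -0.03 to 0.15 for Irf4, -0.01 to 0.14 for Tnfrsf4, -0.08 to 0.21 for Tnfrsf18, -0.20 to 0.10 for Tnip3, -0.03 to 0.40 for Egr4 and -0.20 to 0.75 for Fosb. The fits with different arrays share their data, so a call repeated among them is not independent.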
